A study of Caenorhabditis elegans with 146 samples.

Results

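The aminoacyl-tRNA synthetase genes of C. elegans were followed along the hermaphrodite gonad, from the distal germline to the zygote. Members were all genes whose symbol is 1 letter followed by ars-1, ars-2 or ars-3, where the letter is that of the amino acid (kars-1 for lysine, qars-1 for glutamine). The rule found 34 members among the 46927 genes of the count table. Of these, 12 encode a cytoplasmic enzyme or enzyme subunit that has a separate mitochondrial counterpart, 11 encode the mitochondrial counterparts, 7 have no intact partner among the members (cars-1, gars-1, hars-1, kars-1, qars-1, tars-1 and wars-1), 3 were not assigned a location (yars-1, yars-2 and vars-1, the one valine member), and 1, cars-2, is annotated as a pseudogene. The valine enzyme gene glp-4 and the tryptophan enzyme gene prx-10 carry other symbols and were not members.

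Each library came from a single gonad segment, oocyte or zygote of a well-fed gravid hermaphrodite of strain AZ212, which carries pie-1::H2B::GFP, immobilized with tetramisole. The segments were the distal proliferative zone (S1), the pachytene zone (S2), the diplotene loop (S3) and the diakinesis zone (S4), followed by the -3, -2 and -1 oocytes, numbered from the spermatheca, and the zygote (P0), taken when its pronuclei had fused. Adult age was not given in the sources used here, and all groups share the strain and the treatment. The sheath cells that wrap the segments and oocytes were harvested with them, so a library of the gonad is not pure germline. The quality table marks 104 libraries as used, which are 19 of S1, 17 of S2, 17 of S3, 11 of S4, 6 of -3 oocytes, 13 of -2 oocytes, 15 of -1 oocytes and 6 of P0, from 43 worms. In a library of a whole segment, fewer cells of a type and less RNA per cell cannot be told apart.

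Aminoacyl-tRNA synthetases join each amino acid to its own tRNAs, the step at which the genetic code is read into chemistry. The charged tRNAs are then carried to the ribosome by elongation factors, in the cytoplasm by eEF1A and in mitochondria by EF-Tu. Most organisms keep separate nuclear genes for the cytoplasmic and the mitochondrial enzyme of an amino acid, and a few amino acids are served in both places by 1 gene. The germline is among the most actively translating tissues of the adult worm, and the oocyte carries maternal mRNAs and proteins that the zygote uses before its own genes are transcribed.

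The used libraries held 1273040 to 73449925 reads on genes. They fall into batch A, with 82 libraries and a median of 2859936.5 reads, and batch B, with 22 libraries and a median of 14681432 reads. Every stage has libraries of both batches. Germline markers (glh-1, pgl-1, pgl-3 and deps-1) were present at every stage, with a median summed TPM of 386 in -1 oocytes and 373 in S1, and oocyte markers at 5569 TPM in -1 oocytes and 377 TPM in S1. The distal tip cell markers lag-2 and mig-6 had a median sum of 2.78 TPM in S1 and of 0 to 0.00858 TPM at the other stages. The stem cell markers sygl-1 and lst-1 were not highest at the distal end, with a median sum of 168 TPM in S1, 106 TPM in S2 and between 599 and 1030 TPM in S3, S4, oocytes and P0. The 2 used P0 libraries of batch B are named zygotes in the sample labels but have the stage Unknown in the quality table.

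The 34 members covered a wide range of levels. Levels between genes are given as TPM, which accounts for transcript length. The lysine gene kars-1, at II 7070183 to 7072415 on the minus strand of WBcel235, was the most abundant member, with a median of 220 TPM over the 104 libraries and a range of 65.6 to 384 TPM. It was followed by the aspartate gene dars-1, with a median of 172 TPM (63.4 to 407), and the glutamine gene qars-1, at IV 15008503 to 15013183 on the minus strand, with a median of 161 TPM (17.4 to 340). Their ranges overlapped almost entirely, so the order of these 3 is one of medians only. At the other end stood the pseudogene cars-2, with a median of 0.223 TPM (0 to 14.6), the tryptophan gene wars-1, with 3.18 TPM (0.0807 to 10.9), and the mitochondrial alanine gene aars-1, with 8.96 TPM (0 to 37.9). Among genes with a median TPM of at least 1, kars-1 stood at percentile 94.0 and wars-1 at percentile 12.8. The reads of cars-2, 732 over all used libraries, came from 48 of the 104 libraries. It lies next to the cysteine gene cars-1 on chromosome I, and its count is uncertain because a pseudogene can share reads with its parent. It did not pass the filter on low counts, so 33 members were tested.

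**Figure D1:**
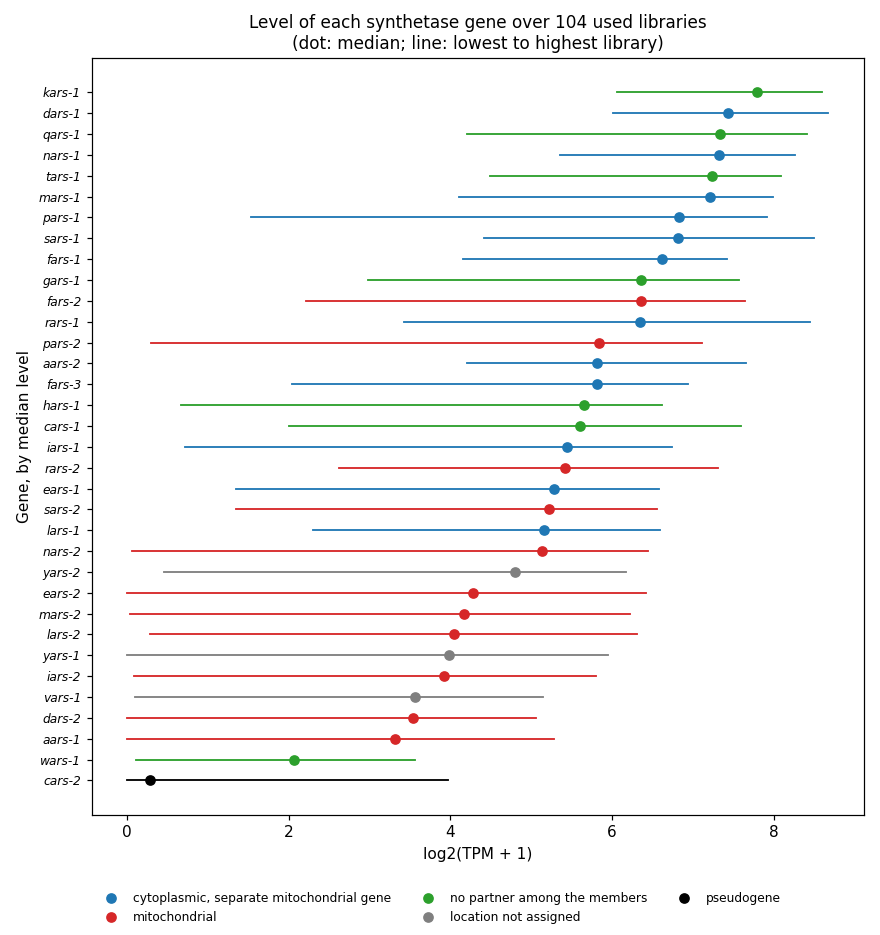
Level of each of the 34 members over the 104 used libraries, as log2 of TPM plus 1. Dots are medians, lines run from the lowest to the highest library, and colors give the class of the gene. The median of kars-1 is 220 TPM and that of cars-2 is 0.223 TPM.

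Mitochondrial genes stood below their cytoplasmic partners for most amino acids. The ratio of the mitochondrial to the cytoplasmic gene, taken within each library from TPM, had a median of 0.0621 for aspartate (dars-2 over dars-1), 0.119 for methionine (mars-2 over mars-1), 0.172 for alanine (aars-1 over aars-2) and 0.225 for asparagine (nars-2 over nars-1). The mitochondrial gene exceeded its partner in 0 of 104 libraries for each of these 4 amino acids. For serine (sars-2 over sars-1), isoleucine (iars-2 over iars-1), leucine (lars-2 over lars-1), proline (pars-2 over pars-1), glutamate (ears-2 over ears-1) and arginine (rars-2 over rars-1) the medians lay between 0.334 and 0.553, and the mitochondrial gene was the higher one in 2 to 17 of 104 libraries. Phenylalanine was closest to equal, with a median ratio of fars-2 to fars-1 of 0.873 and fars-2 the higher one in 34 of 104 libraries. The cytoplasmic phenylalanine enzyme is built of 2 different subunits, the alpha subunit from fars-1 (I 6211981 to 6214685, minus strand) and the beta subunit from fars-3 (II 8464848 to 8467072, plus strand), and their median levels were 96.8 and 55.02 TPM.

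As a share of all TPM, the members together took a median of 0.239% in S1, 0.265% in S2, 0.237% in S3, 0.236% in S4, 0.214% in -3 oocytes, 0.199% in -2 oocytes, 0.179% in -1 oocytes and 0.235% in P0. The lowest median was that of the -1 oocytes, next to the zygotes. The total includes spike-ins, which took a median of 0.605% and up to 19.3% of a used library's TPM. Batches A and B are mixed unequally over the stages. In S1 and in -3, -2 and -1 oocytes the medians were 0.244%, 0.214%, 0.214% and 0.209% within batch A. Within batch B, with 4, 2, 3 and 5 libraries, they were 0.143%, 0.210%, 0.181% and 0.106%. TPM is a share of each library and depends on what else the library holds, so the tests below were made on counts. For these, edgeR's quasi-likelihood F test was fitted over all genes, with the batch and the gene detection rate as covariates, and a gene was called where its adjusted p was under 0.05 and its fold change over 1.5. Values given as CPM are counts as a share of a library's total, scaled by TMM within the comparison, and are compared between stages, not between genes.

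The first comparison asked whether synthetase mRNAs differ between the pachytene zone and the proliferative zone. None of the 33 members was called in S2 vs S1, where 14.6% of the 5253 genes tested were, 6.93% higher and 7.69% lower. DESeq2 and limma on log2(TPM + 1) also called 0 members, beside 17.2% and 17.4% of all genes. By edgeR 8 of 33 members had an unadjusted p under 0.05, beside 1674 of 5253 genes. The log2 fold changes were small, between -0.57 and 0.13, and 28 of 33 were below 0. The arginine gene rars-1, the glutamate gene ears-1 and the mitochondrial phenylalanine gene fars-2 passed the adjusted p without reaching the fold limit, with log2 fold changes of -0.44 (adjusted p = 0.00557), -0.46 (adjusted p = 0.0186) and -0.38 (adjusted p = 0.0270) in edgeR. In the fit with the worm as a block, over 11 worms that gave both segments, dars-2 (log2 fold change -1.14, adjusted p = 0.0191) and the tyrosine gene yars-1 (-0.66, adjusted p = 0.0405) were called. These were 2 of 33 members, beside 1152 of 5225 genes called in that fit, so members were called less often than genes in general.

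In the diplotene loop qars-1 and kars-1 fell. In S3 vs S2, 2 of 33 members were called, both lower, where 20.6% of 6218 genes were called, 15.8% higher and 4.76% lower. The glutamine gene qars-1 had a lowest, median and highest value of 43.1, 188 and 277 CPM in S3, against 172, 337 and 572 CPM in S2. All 17 S3 libraries lay below the S2 median, and the ranges overlapped. Its log2 fold change was -1.38 (SE 0.27, edgeR adjusted p = 0.000159). The lysine gene kars-1 had 266, 458 and 780 CPM in S3, against 513, 919 and 2775 CPM in S2. Again all 17 S3 libraries lay below the S2 median, with overlapping ranges. Its log2 fold change was -0.69 (SE 0.21, edgeR adjusted p = 0.0121). The other 31 members had log2 fold changes between -0.69 and 0.73, and members without a call included the remaining 5 of the 7 genes without a partner. Within batch A alone qars-1 changed by -1.40 (adjusted p = 0.000884) and kars-1 by -0.49 (adjusted p = 0.0736), so the call of kars-1 was lost there, while fars-2, the mitochondrial phenylalanine gene, was called (-0.75, adjusted p = 0.0134). With the worm as a block, over 9 worms, 0 members and 33 genes in all were called, and the 2 log2 fold changes were between -0.85 and -0.07. In that fit the members together went the other way. Their median log2 fold change was 0.24 with 9 of 33 below 0, where all genes had -0.06. Without the block it was -0.19 with 23 of 33 below 0, where all genes had 0.04.

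**Figure D2:**
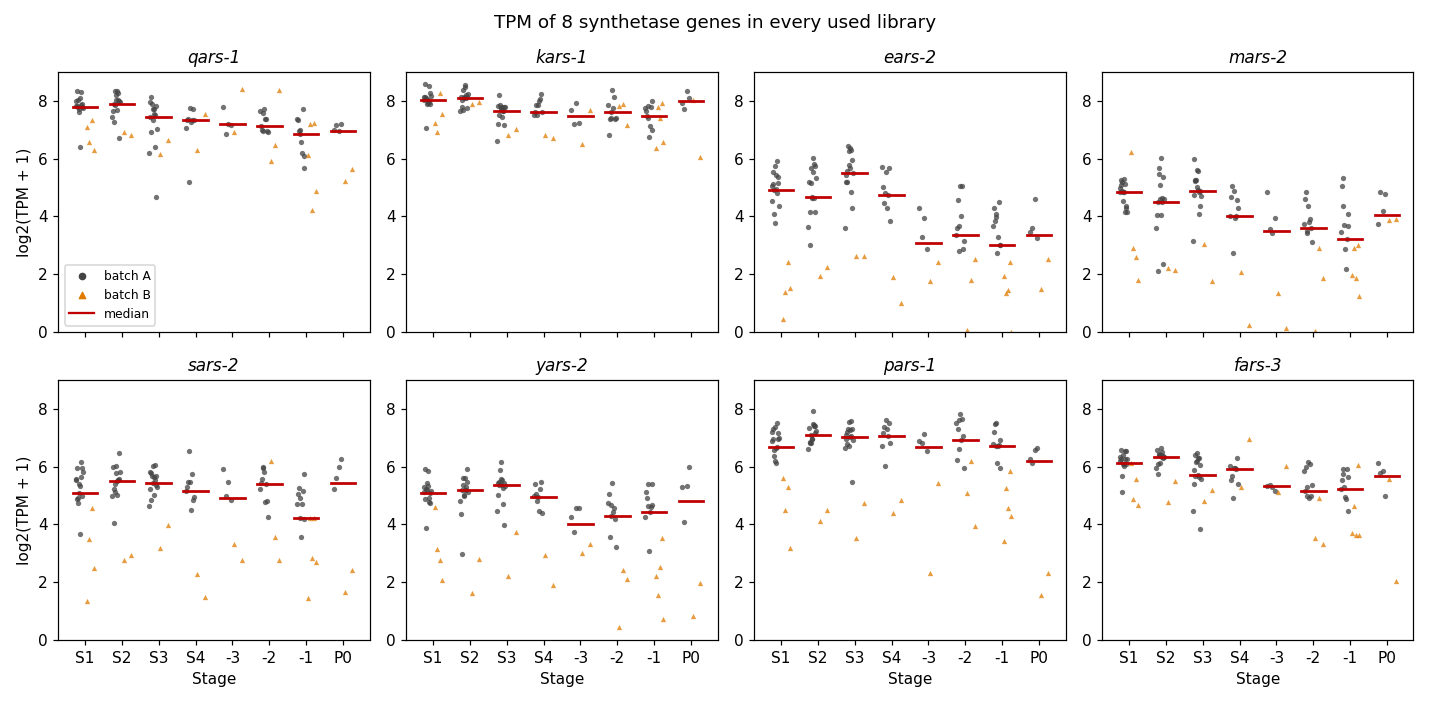
TPM of 8 synthetase genes in every used library by stage, as log2 of TPM plus 1, with batch A as dots, batch B as triangles and the median as a red line. The median of qars-1 was 237 TPM in S2 and 171 TPM in S3, and libraries of batch B lie below those of batch A for ears-2, sars-2, yars-2 and pars-1 at most stages.

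In the diakinesis zone 3 mitochondrial synthetase genes and yars-2 fell. In S4 vs S3, 4 of 33 members were called, all lower, where 7.65% of 7071 genes were called, 3.69% higher and 3.96% lower. The mitochondrial genes were mars-2 for methionine, ears-2 for glutamate and sars-2 for serine, and yars-2 is a tyrosine gene whose location was not assigned. None of the 12 cytoplasmic genes was called. The gene mars-2 had a lowest, median and highest value of 1.85, 25.01 and 45.9 CPM in S4, against 17.5, 58.9 and 102 CPM in S3. All 11 S4 libraries were below the S3 median. The log2 fold change was -1.21 (SE 0.26, edgeR adjusted p = 0.00728). This gene, at I 14486877 to 14496560 on the minus strand, lies upstream of yars-1 (I 14476759 to 14486767). Both are on the same strand with 109 bases between them, and yars-1 itself was not called. For ears-2 (IV 388686 to 390468, minus strand) the values were 8.22, 34.4 and 89.2 CPM in S4, against 28.5, 79.6 and 163 CPM in S3. Of the 11 S4 libraries, 10 lay below the S3 median. It fell by 1.04 on the log2 scale (SE 0.25, edgeR adjusted p = 0.0118). The 2 others fell by less. For sars-2 the log2 fold change was -0.79 (SE 0.24, adjusted p = 0.0360) with a median of 18.6 CPM in S4, against 29.4 CPM in S3, and for yars-2 it was -0.74 (SE 0.21, adjusted p = 0.0300) with a median of 31.9 CPM in S4, against 52.9 CPM in S3.

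Over the 11 mitochondrial genes the median log2 fold change of S4 vs S3 was -0.63, with 11 of 11 below 0. Over the 12 cytoplasmic genes it was -0.16, and over all 7071 genes it was -0.02. The difference between the classes was not tested. On the log2(TPM + 1) scale all genes moved by a median of 0.37, the mitochondrial genes by -0.31 with 8 of 11 below 0, and the cytoplasmic genes by 0.21. Relative to all genes, the mitochondrial median was thus -0.61 on counts and -0.67 on TPM. The same 4 genes were called within batch A alone. With the worm as a block, over 4 worms with 2 residual degrees of freedom, 0 genes of the whole table were called, and the 4 log2 fold changes were between -0.98 and -0.39. With limma on log2(TPM + 1), and with all mapped libraries, 0 members were called, beside 26.7% and 3.88% of all genes tested.

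Between S4 and the -1 oocyte no member was called in any step between neighboring stages. In -3 oocytes vs S4, 0 of 33 members were called by edgeR beside 1.39% of 7135 genes (0.0841% higher and 1.3% lower). An unadjusted p under 0.05 was reached by 4 members and 802 genes. DESeq2 called 1 member there, the isoleucine gene iars-1, which had a median of 69.0 CPM in -3 oocytes, against 151 CPM in S4 (log2 fold change -1.15 in edgeR, adjusted p = 0.213). In -2 vs -3 oocytes, 0 members and 0% of 7206 genes were called by edgeR, with 1 member and 141 genes at an unadjusted p under 0.05, and DESeq2 called 0 genes. With the worm as a block, over 3 worms with 1 residual degree of freedom, edgeR called 92 genes (81 higher and 11 lower) and 0 members in -2 vs -3 oocytes. In -1 vs -2 oocytes, 0 members were called beside 0.158% of 6958 genes, with 0 members and 310 genes at an unadjusted p under 0.05, and DESeq2 called 0 members. The log2 fold changes spanned -1.15 to 0.90, -1.06 to 1.13 and -0.73 to 0.96 in these comparisons.

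**Figure D3:**
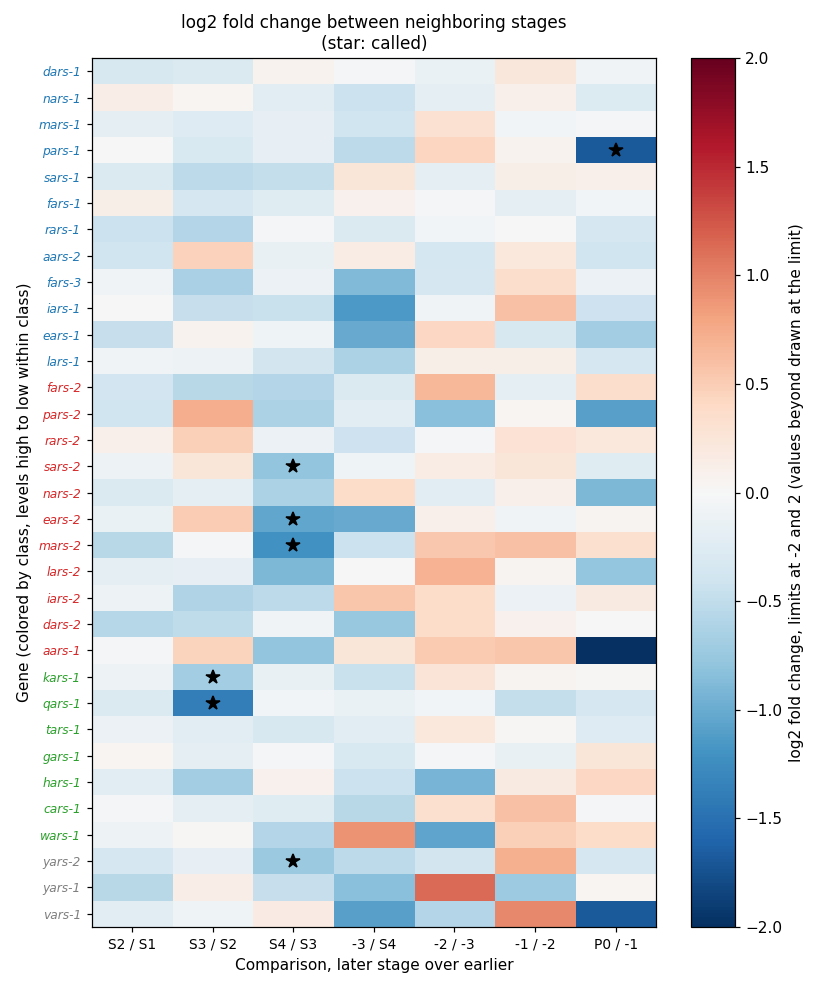
log2 fold changes of the 33 members tested, later stage over earlier, for the 7 comparisons of neighboring stages. Rows are genes colored by class, stars mark the 7 calls, and blue is lower in the later stage. The calls are kars-1 and qars-1 in S3, mars-2, ears-2, sars-2 and yars-2 in S4, and pars-1 in P0.

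After fertilization pars-1, the cytoplasmic proline enzyme gene at III 7239027 to 7241277 on the plus strand, was lower. In P0 vs -1 oocytes, 1 of 33 members was called, where 5.97% of 7555 genes were called, 0.185% higher and 5.78% lower. The P0 libraries had 111, 92.2, 122 and 177 CPM in batch A and 6.12 and 29.3 CPM in batch B, whose 2 libraries are those with the stage Unknown. The -1 oocytes had a lowest, median and highest value of 43.6, 203 and 302 CPM. All 6 P0 libraries lay below the median of the oocytes, and the ranges overlapped. The log2 fold change was -1.67 (SE 0.43, edgeR adjusted p = 0.0187). Within batch A alone it was -1.08 (adjusted p = 0.0149), and within batch B alone -3.60 (adjusted p = 0.315). Without the P0 library of worm unknownB (P0 replicate 3) the adjusted p was 0.0559. With all mapped libraries the log2 fold change was -0.89 (adjusted p = 0.237), and with limma on TPM it was -1.41 (adjusted p = 0.0727). The other 32 members had log2 fold changes between -2.01 and 0.42. The largest of these, the mitochondrial alanine gene aars-1, had a lowest, median and highest value of 0.180, 12.8 and 99.4 CPM in P0, against 0, 26.2 and 64.3 CPM in -1 oocytes, a difference within the spread (log2 fold change -2.01, SE 0.91, adjusted p = 0.293). Among the used libraries no worm gave both a -1 oocyte and a P0.

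Between the ends of the gonad, 16 of the 33 members tested fell in -1 oocytes and 17 did not pass the test. The 16 calls in -1 oocytes vs S1 were all lower, which is 48.5% of the members, where 36.9% of 6139 genes were called, 15.3% lower and 21.6% higher. Of the 33 members, 32 had a negative log2 fold change. The exception was the mitochondrial arginine gene rars-2 (0.46, SE 0.32, adjusted p = 0.278). The median log2 fold change was -0.95 over the members and 0.15 over all genes tested. By class, 6 of 12 cytoplasmic genes (median -0.95), 3 of 11 mitochondrial genes (median -0.91), 6 of 7 genes without a partner among the members (median -1.19) and 1 of the 3 genes without an assigned location were called.

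Of the genes without a partner, qars-1 was the only one of the 16 called members whose ranges did not overlap. It had a lowest, median and highest value of 24.4, 119 and 176 CPM in -1 oocytes, against 223, 341 and 683 CPM in S1. Every -1 oocyte was thus below every S1 library. The log2 fold change was -1.66 (SE 0.32, edgeR adjusted p = 5.65e-05). The lysine gene kars-1 had 238, 367 and 940 CPM in -1 oocytes, against 521, 922 and 2370 CPM in S1. Of the 15 oocytes, 14 were below the S1 median. It fell by 1.19 on the log2 scale (SE 0.27, adjusted p = 0.000586). The histidine gene hars-1 had medians of 70.6 CPM in -1 oocytes and 161 CPM in S1 (log2 fold change -1.25, adjusted p = 0.000277). The threonine gene tars-1 had medians of 199 CPM in -1 oocytes and 474 CPM in S1 (-0.81, adjusted p = 0.0288), and the glycine gene gars-1 medians of 139 CPM in -1 oocytes and 242 CPM in S1 (-0.87, adjusted p = 0.0285). Under 11 alternative settings tars-1 and gars-1 each kept the call in 4, and the highest log2 fold changes were -0.04 and -0.18. The tryptophan gene wars-1, the least abundant intact member, had medians of 3.66 CPM in -1 oocytes and 7.38 CPM in S1 (-1.91, SE 0.71, adjusted p = 0.0312). The cysteine gene cars-1 was the 1 gene of the 7 without a call (-0.11, adjusted p = 0.853).

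Of the cytoplasmic genes, fars-3, sars-1, mars-1, iars-1, fars-1 and lars-1 were called. The beta subunit gene fars-3 had a lowest, median and highest value of 37.6, 76.8 and 188 CPM in -1 oocytes, against 127, 231 and 320 CPM in S1, and all 15 oocytes were below the S1 median (log2 fold change -1.39, SE 0.28, adjusted p = 0.000101). The alpha subunit gene fars-1 had 106, 126 and 296 CPM in -1 oocytes, against 104, 229 and 385 CPM in S1, and 14 of 15 oocytes were below the S1 median (-0.95, SE 0.25, adjusted p = 0.00223). Both subunits were thus lower, with more overlap for fars-1. The isoleucine gene iars-1 had 7.62, 84.5 and 196 CPM in -1 oocytes, against 83.0, 385 and 776 CPM in S1 (-1.46, SE 0.38, adjusted p = 0.00215). The leucine gene lars-1 had 25.9, 88.3 and 223 CPM in -1 oocytes, against 200.3, 323 and 572 CPM in S1 (-1.24, SE 0.33, adjusted p = 0.00318). All 15 oocytes were below the S1 median for both iars-1 and lars-1. The methionine gene mars-1 had medians of 174 CPM in -1 oocytes and 333 CPM in S1 (-1.15, adjusted p = 0.000484), and the serine gene sars-1 medians of 119.7 CPM in -1 oocytes and 314 CPM in S1 (-1.28, adjusted p = 0.000467). Those not called were the genes for alanine, asparagine, aspartate, glutamate, proline and arginine, from -0.95 for ears-1 (adjusted p = 0.0592) to -0.04 for aars-2 (adjusted p = 0.925).

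Of the mitochondrial genes, sars-2, ears-2 and fars-2 were called. The serine gene sars-2 had a lowest, median and highest value of 1.53, 14.3 and 35.8 CPM in -1 oocytes, against 1.38, 40.4 and 60.1 CPM in S1 (log2 fold change -1.73, SE 0.58, adjusted p = 0.0166). The glutamate gene ears-2 had 0, 14.6 and 29.4 CPM in -1 oocytes, against 1.55, 77.6 and 139 CPM in S1 (-1.49, SE 0.55, adjusted p = 0.0315). For both, all 15 oocytes were below the S1 median, and the ranges overlapped through a few low S1 libraries. Under 11 alternative settings sars-2 kept its call in 7 and ears-2 in 5. The phenylalanine gene fars-2 had 23.03, 49.5 and 212 CPM in -1 oocytes, against 86.9, 138 and 399 CPM in S1 (-1.16, SE 0.29, adjusted p = 0.00151). The largest change of all members was that of the tyrosine gene yars-1 (-2.07, SE 0.49, adjusted p = 0.000992), and this value depended on the oocytes chosen. In batch A it had 14.5, 29.5 and 64.5 CPM in -1 oocytes, against 44.3, 79.5 and 96.5 CPM in S1. In batch B it had 0, 0.462 and 2.37 CPM in -1 oocytes, against 2.06, 8.96 and 11.9 CPM in S1. Its median was lower in the oocytes of both batches, but with -2 oocytes in place of -1 oocytes, an alternative chosen after seeing the data, its log2 fold change was 0.57 (adjusted p = 0.540).

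**Figure D4:**
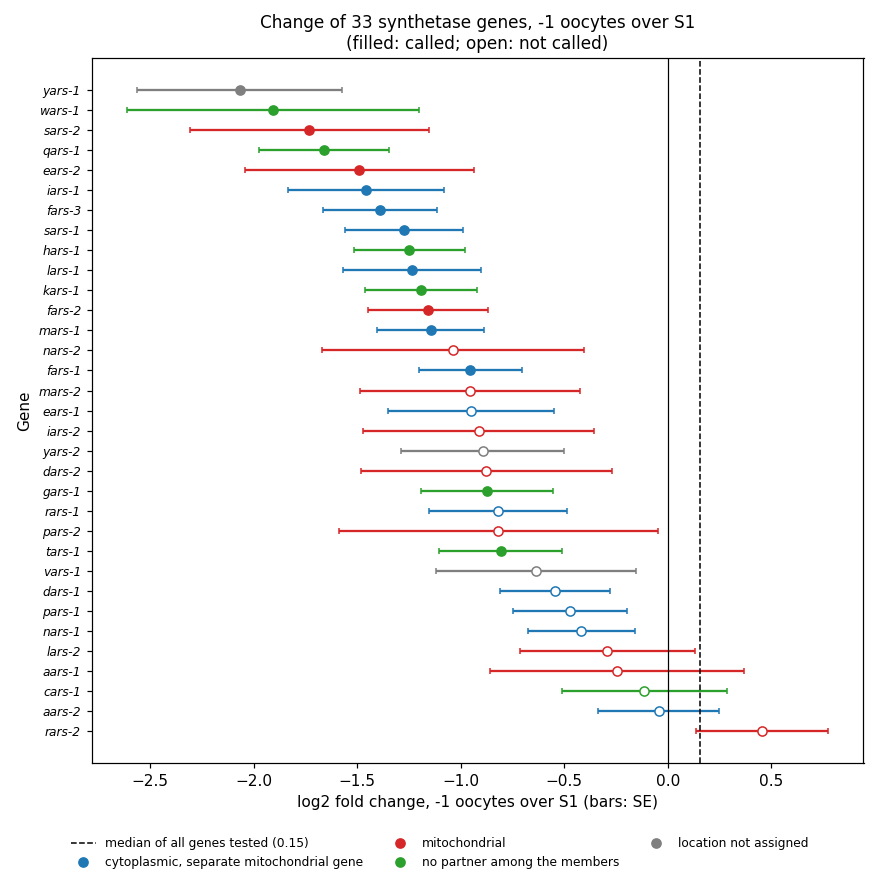
log2 fold change of the 33 members tested in -1 oocytes over S1, with bars of 1 SE from edgeR, filled where called and open where not. The dashed line is the median of all genes tested, 0.15. Only rars-2 lies to the right of that line, and the 16 filled points lie between -2.07 and -0.81.

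The size of the difference between -1 oocytes and S1 depended on the scaling and on the test. On log2(TPM + 1) with limma, all genes moved by a median of 0.68 and the members by -0.25, so the members stood 0.94 below all genes, against 1.11 below on counts. On that scale 25 of 33 members were below 0 and 3 were called, qars-1 and pars-2 lower and rars-2 higher (1.03, adjusted p = 0.0271), beside 43.3% of all genes tested. Several genes called on counts had like TPM at both ends, such as fars-1, with a median of 81.6 TPM in -1 oocytes and 83.1 TPM in S1. Within batch A alone 19 members were called beside 41.9% of all genes tested, and within batch B alone, with 5 oocytes and 4 segments, 0 were beside 5.68% of all genes tested, with 31 of 33 members below 0. With the worm as a block, over 7 worms with 5 residual degrees of freedom, 0 members and 3 genes in all were called, and the 16 log2 fold changes were between -4.39 and -0.49.

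Somatic markers moved along the same axis. The summed level of the 8 sheath markers had a median of 10.9 TPM in S1, 695 TPM in -1 oocytes and 3.20 TPM in P0, and 5 of the 8 markers had a median of 0 in S1, 0 of the 8 in -1 oocytes and 6 in P0. The 4 spermatheca markers summed to a median of 4.29 TPM in S1, 23.5 TPM in -2 oocytes and 14108 TPM in -1 oocytes (13.7 to 45630). With -2 oocytes in place of -1 oocytes, 17 members were called beside 38.1% of 5864 genes. Of the 16 members called in -1 oocytes, 12 were among these 17, 3 were lower without a call and 1, yars-1, was higher without a call. The part of sheath RNA in the results was not tested.

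With all 7 stages before fertilization in one fit, 26 of 33 members (78.8%) differed between stages, where 67.6% of 9013 genes did. The 7 members that did not were pars-2, rars-2, gars-1, aars-2, iars-2, aars-1 and dars-2, of which 5 are mitochondrial. Among these gars-1 had been called in -1 oocytes vs S1. Counting neighboring stages and the ends of the axis together, 19 members were called at least once and 14 were not, and 4 members, qars-1, kars-1, ears-2 and sars-2, were called both in a step between neighbors and between the ends. These comparisons share libraries, since each stage enters more than 1 of them. The share of all genes called at least once, or in both ways, was not counted. These counts of members therefore have no background and show no trait of the synthetases.

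The ratio of partner genes of the same amino acid differed between the ends of the gonad for 7 of 13 pairs. For these tests log2 ratios of (TPM + 1) within a library in -1 oocytes and S1 were compared for 13 pairs by a two-sided permutation test of stage within batch with 100000 resamples, adjusted over the 13. These tests were chosen after the values had been seen. Of the 13 ratios, 7 passed, 3 higher and 4 lower in -1 oocytes. Ratios of unrelated genes were not tested, so the count has no background. With limma on log2(TPM + 1), 43.3% of all genes tested were called between these ends. Whether partner genes differ more often than other pairs was thus not tested. The arginine ratio, rars-2 (II 6125559 to 6127942, plus strand) over rars-1 (III 4914088 to 4917177, minus strand), had a lowest, median and highest log2 value of -1.06, -0.48 and 2.09 in -1 oocytes, against -3.15, -1.94 and -0.76 in S1. The ranges met only at their ends. The mean difference was 1.63 (permutation adjusted p = 6.5e-05, with a p of 1e-05, the smallest that these resamples can give). In TPM, rars-2 had a median of 45.5 in -1 oocytes and 22.3 in S1, while rars-1 had 63.1 in -1 oocytes and 81.7 in S1.

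The leucine ratio, lars-2 over lars-1, was also higher, by 0.98 (permutation adjusted p = 0.00143), with medians of -0.70 in -1 oocytes and -1.54 in S1. The isoleucine ratio, iars-2 over iars-1, was higher by 0.93 (permutation adjusted p = 0.0155), with medians of -1.02 in -1 oocytes and -1.69 in S1. In each of these the mitochondrial gene gained on its cytoplasmic partner. The opposite held for phenylalanine, where fars-2 over fars-1 had medians of -0.72 in -1 oocytes and 0.21 in S1, a mean difference of -1.01 (permutation adjusted p = 8.67e-05). The mitochondrial gene also lost ground for methionine (mars-2 over mars-1, -0.87, permutation adjusted p = 0.0214) and proline (pars-2 over pars-1, -0.97, permutation adjusted p = 0.0465). The proline ratio lost its call with -2 oocytes (-1.00, adjusted p = 0.0681), and the proline and isoleucine ratios lost theirs with a pseudocount of 0.1 (adjusted p = 0.0593 for both). The alanine, asparagine, aspartate, glutamate and serine ratios, and fars-2 over fars-3, did not pass, with differences between -0.20 and 0.61.

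The subunits of the cytoplasmic phenylalanine enzyme also shifted against each other. The median ratio of fars-3 to fars-1 in TPM was 0.821 in S1, 0.701 in S2, 0.579 in S3, 0.575 in S4, 0.359 in -3 oocytes, 0.413 in -2 oocytes, 0.471 in -1 oocytes and 0.423 in P0. The log2 ratio in -1 oocytes was lower than in S1 by 0.89 on average (permutation adjusted p = 6.5e-05), and all 7 ratios that passed did so within batch A alone as well. HTSeq was run at its default settings, which count by strand. The study prepared its libraries by a modified Tang protocol or by Smart-seq2, and its methods do not say whether the reads keep the strand. The counts of a member whose exons overlap a gene on the opposite strand are therefore uncertain. Among the members called here these are fars-1 (T08B2.15), ears-2 (ssna-1), iars-1 (mpz-5), sars-1 (C47E12.13), tars-1 (kel-1), wars-1 (nhr-230) and yars-1 (ekl-4), and rars-1 overlaps cee-1 in the same way. Exons of pars-2 (T27F6.6) and iars-2 (C25A1.20), both in ratios that passed, overlap a gene on the same strand, so their levels are uncertain too. Counts and TPM disagreed for pars-2. It had 6933 reads over the used libraries, against 120482 for pars-1. Their log2 ratio of (TPM + 1) had medians of only -1.96 in -1 oocytes and -0.47 in S1. The cause was not tested.

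**Figure D5:**
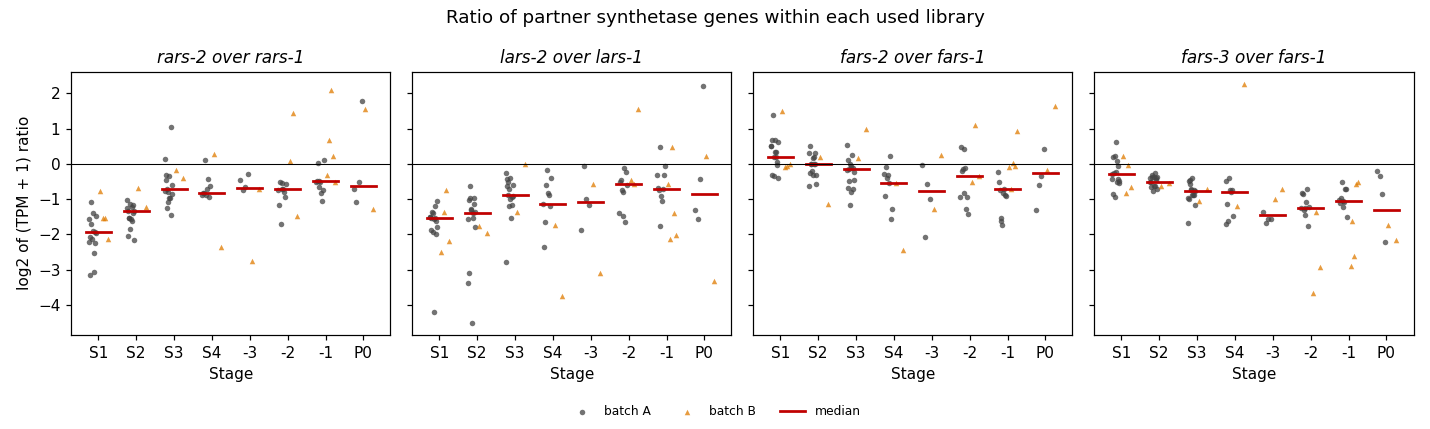
log2 ratio of (TPM + 1) of partner genes within each used library by stage, for rars-2 over rars-1, lars-2 over lars-1, fars-2 over fars-1 and fars-3 over fars-1, the 4 with the smallest adjusted p. Batch A is shown as dots, batch B as triangles and the median as a red line. The arginine ratio has a median of -0.48 in -1 oocytes and -1.94 in S1.

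Other genes of the tRNA pathway were read as 3 lists. In -1 oocytes vs S1, 15.3% of all 6139 genes tested were called lower and 21.6% higher. Of 8 genes that deliver charged tRNAs to the ribosome, 6 were called lower and 0 higher in -1 oocytes vs S1 (median log2 fold change -1.48). They include the elongation factor genes eef-1A.1 (-2.36, SE 0.44, adjusted p = 4.89e-05) and eef-1G (-1.86, SE 0.35, adjusted p = 4.68e-05), which encodes a subunit of the exchange factor of eEF1A, and the mitochondrial factor gene tufm-1 (-1.35, adjusted p = 0.00071). Of 24 listed genes for tRNA maturation and modification, 20 were matched to the files and tested, and 9 were called lower and 0 higher (median -0.96), among them nsun-1 (-3.11, SE 0.44, adjusted p = 4.16e-07), a gene of the NOL1/NOP2/SUN methyltransferase family, and the elongator complex gene elpc-3 (-1.88, adjusted p = 2.34e-05). Of 12 listed genes of the response to uncharged tRNA, 10 were matched and 9 tested, and 2 were called lower, among them gcn-1 (-2.33, adjusted p = 2.21e-05), an activator of the kinase GCN2, and 1 higher, pek-1, an eIF2alpha kinase gene that is known for its answer to stress in the endoplasmic reticulum (6.94, SE 1.34, adjusted p = 7.22e-05). It had a lowest, median and highest value of 18.1, 51.1 and 96.5 CPM in -1 oocytes, against 0, 0 and 14.2 CPM in S1, and the ranges did not overlap. Of these genes tufm-1 and gcn-1 were already lower in S2 vs S1 (-0.80, adjusted p = 0.000421, and -0.91, adjusted p = 0.00117), a step in which no synthetase gene was called, and pek-1 was higher in S3 vs S2 (4.73, adjusted p = 0.000383). In S2 vs S1 the 3 lists had 3, 3 and 1 genes called lower and 0 higher, where 7.69% of all genes were lower and 6.93% higher. In S3 vs S2 each list had 1 gene called lower, where 4.76% of all genes were lower and 15.8% higher. In S4 vs S3, 3 of the 20 genes for tRNA maturation and modification were called lower and 0 higher. The other lists had 0 calls there, where 3.96% of all genes were lower and 3.69% higher. In P0 vs -1 oocytes the only gene of the 3 lists that was called was eef-1A.2, an isoform of eEF1A, which was lower (-1.91, SE 0.54, adjusted p = 0.0340).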

How the data were processed

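RNA-seq libraries of single gonad segments, oocytes and zygotes were analysed. The submitters' processing notes name Trim Galore, HISAT2, HTSeq and Salmon and the genome WBcel235, and the methods give the WormBase WS291 annotation and default settings for HISAT2, HTSeq and Salmon, with no versions. The authors deposited raw read counts per gene from HTSeq without normalization. The TPM values were computed by the authors using Salmon. TPM divides by transcript length and by each library's total. The authors computed the fractions in the deposited quality table, which gives shares of reads mapped and of TPM on classes of genes, with custom scripts and QoRTs, and the table also gives batch and use for every library, where use depended in part on how libraries grouped together. HTSeq and Salmon treat reads shared by overlapping or copied genes differently.

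Stages came from the sample labels, and the 104 used libraries of the 8 stages were analysed. Spike-in rows, which took 1.09e-05% to 29.3% of the reads of a used library, and 797 genes (36 of the mitochondrial genome, 20 of rRNA and 741 correlated at r above 0.99 with 31 msp genes of sperm) stayed out of library sizes and tests. Counts were tested with edgeR 4.0.16 in R 4.3.3 (filterByExpr by stage at a minimum count of 10, TMM, robust quasi-likelihood F test, batch and share of genes with reads as covariates), with Benjamini-Hochberg adjustment over all genes tested, an adjusted p under 0.05 and a fold above 1.5. The study's methods used another tool on normalized counts with the same covariates. Each comparison was fitted on the libraries of its stages only. An SE is the size of the log2 fold change over the root of its F value. Alternatives were DESeq2 1.42.0, limma 3.58.1 on log2(TPM + 1), a scale that understates changes of low genes, median-of-ratios factors, no genes left out, no filter on low counts, no detection covariate, all mapped stage libraries, batch A alone, leaving out -3 oocyte or P0 libraries in turn, and worm as a block. Batch B alone, -2 in place of -1 oocytes and the tests of partner ratios, in Python 3.11.15 with numpy 2.4.6 and pandas 2.3.3, were added after seeing the data. The edgeR and DESeq2 scripts were tested on simulated counts.

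The labels name the worm of most libraries, so libraries of 1 worm are paired. The deviations of same-worm libraries from their stage means correlated at a mean r of 0.172 (S2 vs S1), 0.155 (S3 vs S2), 0.185 (S4 vs S3), 0.0671 (-3 oocytes vs S4), 0.280 (-2 vs -3), 0.137 (-1 vs -2) and 0.00799 (-1 oocytes vs S1), and those of different worms at a mean between -0.0213 and -0.000536.

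Members and lists were chosen with earlier results of these data known. By symbol 32 members matched the gene name table and 2, mars-2 and cars-2, the RefSeq table. Classes by location were assigned by hand from common knowledge of the genes, since no product names were given in the sources used here. Named with values were members called in any comparison, the 3 highest and 3 lowest by median TPM, fars-1 and fars-3, and both genes of each amino acid with a cytoplasmic and a mitochondrial gene. Of the called genes of the 3 related lists only some are named, as examples and not by a rule. Other members singled out in the text were chosen after their values were seen. Coordinates and overlaps are from the Ensembl 115 annotation of WBcel235. Within a stage every used library came from a different worm as named in the labels. No sequence is shown.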

Additional observations from a re-analysis of the deposited data

Results flagged for a closer look

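Single libraries stood apart for a few members. Of 68 groups (the 34 members in the 6 libraries each of -3 oocytes and P0) tested by Dixon's criterion at the 95% level, 9 had such a value, where chance gives about 3.4. In P0 the library of worm unknown5, the deepest of all, had 37.9 TPM of aars-1, where the next had 8.89, 94.7 TPM of ears-1, where the next had 33.1, and 78.4 TPM of lars-2, where the next had 25.1. Also in P0, the library of Worm2 had 2.29 TPM of cars-2, where the next had 0.932, and that of unknownB had the lowest gars-1, 20.03 TPM, where the next had 86.7. In -3 oocytes the library of WormJ had 63.4 TPM of fars-3 and 264 TPM of sars-1, where the next had 40.3 and 125, that of WormH had 197 TPM of mars-1, where the next had 127, and that of Worm20 had 34.4 TPM of vars-1, where the next had 11.3.

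The change between stages differed between batches for 9 members, by a batch by stage term in edgeR adjusted over all genes. In S4 vs S3 the log2 fold change of batch B minus that of batch A was 1.37 for dars-1 (adjusted p = 0.0408), 2.03 for qars-1 (0.0390), 2.83 for ears-1 (0.0186) and 2.78 for fars-3 (0.00988), and it was -2.27 for iars-2 (0.0323), -2.82 for lars-2 (0.0198) and -2.30 for nars-2 (0.0138). Batch B had 2 libraries of each of these stages, and those of S4 were far apart, with 178 and 2106 CPM of fars-3. None of these 7 genes was called in S4 vs S3. The difference was -3.98 for yars-1 in -3 oocytes vs S4 (adjusted p = 0.0287), -3.35 for iars-2 (0.0362) and -5.53 for yars-1 (0.0188) in -1 vs -2 oocytes, -4.33 for nars-2 in P0 vs -1 oocytes (0.0185) and -1.59 for cars-1 in -1 oocytes vs S1 (0.0444). The highest yars-1 value of batch B in -2 oocytes was 197 CPM, and the lowest was 0.257 CPM.

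Members also had reads in libraries outside the comparisons. Over the 9 libraries of early embryos, 33 of 34 members had more than 3 reads in all, and over the 2 libraries of mixed segments 31 had.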

How the results depend on the processing

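Of the calls of single members in the comparisons of stages, 161 of their values under the alternatives kept direction and call, 84 kept the direction only and 1 reversed, which was yars-1 in -1 oocytes vs S1 with -2 oocytes in place of -1 oocytes (0.57, adjusted p = 0.540). Counts of called members that moved by more than 1.5 times were as follows, and the cause was not tested. Without the detection covariate 1 member was called in S2 vs S1 (16.7% of all genes tested), 15 in S3 vs S2 (31.8%) and 28 in -1 oocytes vs S1 (59.2%). With all mapped libraries the counts were 6 in S3 vs S2 (9.96%), 0 in S4 vs S3 (3.88%), 0 in P0 vs -1 oocytes (9.30%) and 25 in -1 oocytes vs S1 (42.1%). With limma on log2(TPM + 1) they were 6 in S3 vs S2 (22.3%), 0 in S4 vs S3 (26.7%), 0 in P0 vs -1 oocytes (4.99%), 3 in -1 oocytes vs S1 (43.3%) and 17 in the test of all stages (67.7%). With the worm as a replicate block they were 2 in S2 vs S1 (1152 of 5225 genes), 0 in S3 vs S2 (0.539%), 0 in S4 vs S3 (0%) and 0 in -1 oocytes vs S1 (0.0513%), in fits with fewer libraries. Batch A alone gave 1 in S2 vs S1, batch B alone 0 in P0 vs -1 oocytes and 0 in -1 oocytes vs S1, median-of-ratios factors 2 in S4 vs S3, and DESeq2 1 in -3 oocytes vs S4 and 3 in P0 vs -1 oocytes (aars-1, pars-1 and vars-1). Leaving out each P0 library in turn gave 0 to 1 in P0 vs -1 oocytes (4.20% to 5.46% of all genes tested). No paired analysis was possible because no worm had used libraries of both stages, for P0 vs -1 oocytes. In the test of all stages 19 members passed with the block, beside 53.8% of all genes tested. In the 3 comparisons among S4 and oocytes the block called 0 members, as did the fit without it. Median-of-ratios factors moved the median of all genes in -1 oocytes vs S1 to 0.31 and that of the members to -0.78. Counting error is largest for the low members, such as wars-1 and aars-1, and the shallowest used library held 1273040 reads.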

Other observations

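In the 9 libraries of early embryos, which the labels place in no stage and whose share of uniquely mapped reads ran from 17.2% to 85.6%, the order of the members differed from that of the gonad. The cytoplasmic serine gene sars-1 had the highest median among the members named here, 189 TPM, followed by aars-2 with 127 TPM, rars-1 with 107 TPM and hars-1 with 87.2 TPM. The lysine gene kars-1, the most abundant member over the stages, had a median of 55.7 TPM, the methionine gene mars-1 had 1.31 TPM, and vars-1 and aars-1 were listed at a median of 0.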
